A study of Mus musculus with 12 samples.

Results

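The genes described here encode the acidifying pump, the proteases and the other hydrolases of the lysosome, with a few of its membrane proteins and a transcription factor that controls many of them. The members were 43 genes listed by symbol: 15 subunits of the proton pump, 11 cathepsins and legumain, 10 other hydrolases and their cofactors, 6 membrane and lipid-transfer proteins, and the regulator Tfeb. All 43 were found among the 18996 genes of the table and all 43 passed the low-count filter, with no fewer than 90 counts in any mouse. The tissue came from beside the spine of BALB/c mice of 5 to 7 weeks, 4 mice in each of 3 groups, and the study used males and females. No operation mice gave unoperated paraspinal soft tissue. SHAM mice had surgery without lamina excision, and Laminectomy mice had the laminae of the lower thoracic and upper lumbar spine removed down to the dura. Tissue of both surgical groups was a mixture of scar and soft tissue, taken 7 days after surgery, so the reference tissue differed from the operated tissue in kind as well as in treatment. No mouse carried a transgene or received a drug by the labels.

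The lysosome degrades proteins, glycans and lipids that reach it by endocytosis, phagocytosis or autophagy. Its pump, the vacuolar ATPase, has a cytosolic sector (V1) that splits ATP and a membrane sector (V0) through which protons pass, and the acid that it makes activates most of the enzymes inside. Cathepsins are the lysosomal proteases, and they are abundant in macrophages and other phagocytes that clear debris after injury. Skeletal muscle fibers hold lysosomes too, and Gaa, the enzyme that breaks down glycogen in them, is the best known of their hydrolases because its loss causes Pompe disease. TFEB, the product of Tfeb, binds short palindromic sites near the starts of many lysosomal genes.

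The sequences below show how such sites lie at the starts of members whose levels are described afterwards. A RefSeq promoter window (GRCm38.p6, 250 bases before to 50 after the start) was found for 36 of the 43 members. The E-box CACGTG was present in 14 of these 36 (38.9%), against 8.09% of all 27025 genes with a window and 9.96% of the 15004 of them that are in the count table. The longer palindrome TCACGTGA, which contains the E-box, was present in 7 of the 36 (19.4%), against 1.12% of all genes and 1.62% of those in the count table. The variant TCATGTGA, searched on both strands (TCACATGA on the other), was present in 5 of the 36 (13.9%), against 1.15% and 0.946%. Each line gives a stretch in the direction of transcription with the matched letters in capitals, and the Lamp1 stretch was chosen because it held 4 E-boxes just before the start.
Ctsd, chr7:142387908-142387937, minus strand, match from 99 bases before the start: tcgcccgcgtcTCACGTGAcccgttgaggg
Ctsa, chr2:164833749-164833778, plus strand, match from 13 bases before the start: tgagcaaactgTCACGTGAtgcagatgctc
Gla, chrX:134601215-134601244, minus strand, match from 228 bases before the start: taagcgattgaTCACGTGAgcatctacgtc
Gla, chrX:134601182-134601211, minus strand, match from 195 bases before the start: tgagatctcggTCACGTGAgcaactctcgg
Atp6v1a, chr16:44139373-44139402, minus strand, match from 132 bases before the start: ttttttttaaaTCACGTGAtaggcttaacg
Atp6v0d1, chr8:105566050-105566079, minus strand, match from 4 bases before the start: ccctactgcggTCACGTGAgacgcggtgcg
Atp6v0e, chr17:26676387-26676416, plus strand, match from base 2 after the start: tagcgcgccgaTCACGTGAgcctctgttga
Mcoln1, chr8:3500462-3500491, plus strand, match from 46 bases before the start: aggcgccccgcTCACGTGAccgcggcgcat
Lamp1, chr8:13159097-13159160, plus strand, the 64 bases before the start: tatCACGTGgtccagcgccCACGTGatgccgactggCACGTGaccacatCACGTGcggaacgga
Ctss, chr3:95526793-95526822, plus strand, match from base 18 after the start: ttgtggatgctTCATGTGAcaagctccgat
For Ctsd, Ctsa, Gla, Atp6v1a, Atp6v0e and Mcoln1 the RefSeq start lay inside the GENCODE gene, so distances are from that start and not from the first base of the gene, and the stretches of these genes other than Gla lay within it. These matches are a description of the letters, and binding was not measured. Ctsd, Ctsa, Gla, Atp6v1a, Atp6v0d1 and Atp6v0e were higher in both surgical groups, while Mcoln1 and Lamp1 were called in neither. Ctsf and Gaa, whose windows also held the E-box, were lower in both.

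Counts per mouse totaled between 16802988 and 18077863, so depth differed little, and levels below are CPM, the counts of a gene as a share of its library on a fixed scale, after TMM scaling. A gene is called higher or lower where its adjusted p in edgeR's quasi-likelihood test was below 0.05 and its absolute log2 fold change above 0.5. The defining muscle markers checked the tissue label: 12 skeletal muscle genes summed to 92753 to 134493 CPM in No operation mice, 2278 to 9922 in SHAM mice and 3386 to 13826 in Laminectomy mice. The 14 macrophage markers summed to 741 to 1647, 3324 to 6480 and 2155 to 2676 CPM in the same order. In bulk tissue, fewer cells of a type and less RNA per cell cannot be told apart, and the part of the changed cell composition in the results below was not tested. With library totals alone in place of TMM, the median gene itself moved by 0.25 (SHAM) and 0.33 (Laminectomy) on the log2 scale, so the changes here are relative to the median gene.

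Most lysosomal members were higher after surgery than in unoperated tissue. The 43 members summed to 7510 to 10209 CPM in No operation mice, 18159 to 26792 in SHAM mice and 15169 to 20446 in Laminectomy mice, with no overlap between unoperated and operated mice. In SHAM mice 30 members were called higher and 3 lower, and in Laminectomy mice 27 were higher and 3 lower. Over all 14765 genes tested, 50.8% were called in SHAM (25.7% higher and 25.1% lower) and 48.6% in Laminectomy (24.2% higher and 24.4% lower). The median log2 fold change of the members was 0.82 in SHAM and 0.93 in Laminectomy, beside medians of 0.00 and 0.01 over all genes. The values of the mice did not overlap for 34 members in each comparison, where 54.5% (SHAM) and 56% (Laminectomy) of all genes did not. Both comparisons used the same 4 No operation mice. In both, 27 members were higher, Ctsf, Gaa and Tfeb were lower, and 10 were called in neither, while Tpp1, Lamp2 and Npc1 were called in SHAM alone, a difference that is tested by the comparison of the surgical groups below. With library totals alone the members' calls were 32 higher and 2 lower in SHAM and 32 higher and 3 lower in Laminectomy, beside 5179 higher and 2671 lower genes in SHAM and 5456 and 2347 in Laminectomy over all genes. Under that scaling Tpp1, Lamp2 and Npc1 were called higher in Laminectomy too.

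**Figure D1:**
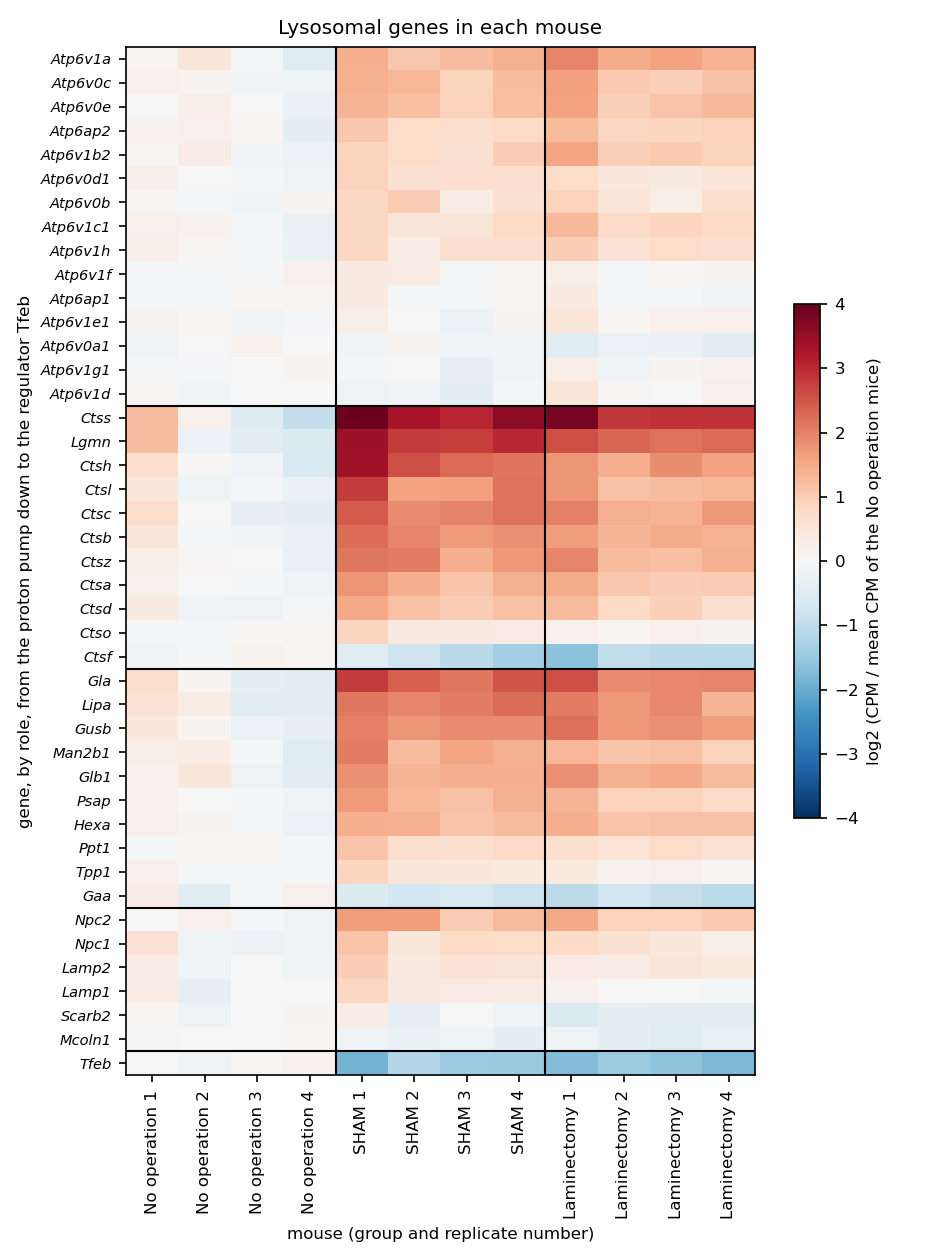
Each cell is a gene's log2 CPM (prior count 2) in 1 mouse minus the mean of its log2 CPM in the 4 No operation mice. Genes are in rows by role and the 12 mice in columns. Cathepsins and other hydrolases form the reddest blocks in SHAM and Laminectomy mice, the lower 6 rows of the pump block stay pale, and Ctsf, Gaa and Tfeb are blue.

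Within each group the members tended to be highest in the same mouse. SHAM replicate 1 had the highest CPM of its group for 35 of the 43 members, and Laminectomy replicate 1 for 35, while No operation replicate 1 led for 25. SHAM replicate 1 also had the highest macrophage marker sum of all mice (6480 CPM, against 3324 to 3562 in the other SHAM mice) and the lowest muscle marker sum (2278 CPM). Laminectomy replicate 1 had a macrophage sum of 2676 CPM, against 2155 to 2247 in the other mice of its group, and a muscle sum of 3386 CPM, against 11005 to 13826. Leaving out any 1 mouse left 28 to 32 members higher in SHAM and 26 to 28 in Laminectomy.

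Of the 15 members of the proton pump, 9 (60%) were called higher in each surgical group and 0 lower, beside 25.7% of all genes higher and 50.8% called in SHAM and 24.2% and 48.6% in Laminectomy. They had a median log2 fold change of 0.65 in SHAM and 0.62 in Laminectomy. The summed level of the 15 members was 1292 to 1462 CPM in No operation mice, 1824 to 2332 in SHAM mice and 2016 to 2792 in Laminectomy mice. In the membrane sector 4 of 5 members were higher in each group, in the cytosolic sector 4 of 8 (50%), and of the 2 accessory subunits Atp6ap2 but not Atp6ap1.

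Atp6v1a, which encodes the catalytic subunit A of the cytosolic sector (chr16:44085402-44139705), had the largest increase of the pump in Laminectomy. It was at 87.4, 115, 80.2 and 59.7 CPM in the 4 No operation mice, 229, 175, 197 and 225 in SHAM mice and 321, 232, 256 and 219 in Laminectomy mice. Every operated mouse was above every unoperated one, and the log2 fold change was 1.27 ± 0.19 (SE) in SHAM (edgeR adjusted p = 0.000187) and 1.58 ± 0.20 in Laminectomy (adjusted p = 5.82e-05). Atp6v0e, a small subunit of the membrane sector (chr17:26663231-26699647), was at 33.9, 41.1, 33.7 and 28.1 CPM without surgery, 86.6, 77.4, 64.5 and 78.9 in SHAM and 103, 65.4, 74.9 and 83.6 in Laminectomy. Both surgical groups lay wholly above the unoperated mice, by a log2 fold change of 1.17 ± 0.16 and 1.26 ± 0.16 (adjusted p = 7.54e-05 and 6.23e-05). Atp6v0c, the proteolipid subunit that forms the proton-carrying ring (chr17:24163866-24169702), was at 205, 197, 166 and 159 CPM without surgery, 480, 449, 335 and 425 in SHAM and 567, 373, 347 and 406 in Laminectomy. Its level more than doubled in each group, with a log2 fold change of 1.22 ± 0.18 in both.

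The other 6 pump members that rose had smaller changes. Atp6v1b2, the B subunit that pairs with subunit A, had a log2 fold change of 0.80 in SHAM and 1.14 in Laminectomy. Atp6ap2, the accessory protein also known as the prorenin receptor, had 0.82 and 0.96. The values were 0.65 and 0.93 for Atp6v1c1 (subunit C, which joins the sectors), 0.60 and 0.73 for Atp6v1h (subunit H), 0.70 and 0.62 for Atp6v0b and 0.71 and 0.50 for Atp6v0d1. Exons of Atp6v0b and Atp6v1h overlap those of another gene on the opposite strand, and the default counting settings that the methods name do not separate strands. Atp6v0d1 sat at the fold threshold in Laminectomy, and its call was lost without Laminectomy replicate 1 or without No operation replicate 2, 3 or 4.

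The remaining 6 pump members were called in neither comparison. Atp6v1d, a subunit of the central stalk, was at 72.7, 63.3, 69.0 and 69.2 CPM without surgery, 60.1, 63.0, 52.1 and 65.3 in SHAM and 94.9, 70.7, 68.5 and 78.1 in Laminectomy. Atp6v1g1 was at 111, 109, 113 and 124 CPM, then 108, 114, 90.6 and 100 in SHAM and 137, 100, 124 and 126 in Laminectomy. For both genes the surgical groups overlapped the unoperated mice, and for Atp6v1d the Laminectomy mice all lay above the SHAM mice. Atp6v1e1 was at 109, 104, 92.3 and 94.2 CPM without surgery, 118, 101, 85.1 and 106 in SHAM and 138, 104, 115 and 115 in Laminectomy. Atp6v1f was at 38.9, 38.8, 38.1 and 45.1 CPM, then 51.6, 50.7, 38.3 and 42.6 in SHAM and 47.2, 38.7, 42.1 and 43.7 in Laminectomy. Atp6ap1, an accessory subunit of the pump, was at 184, 184, 204 and 203 CPM, then 249, 187, 189 and 202 in SHAM and 251, 186, 184 and 182 in Laminectomy. For these too the ranges of the groups overlapped, and the exons of Atp6v1e1 overlap Slc25a18 on the opposite strand. Atp6v0a1, an isoform of the large membrane subunit that is abundant in neurons, was at 108, 118, 130 and 117 CPM without surgery, 110, 128, 105 and 109 in SHAM and 84.5, 101, 98.9 and 88.1 in Laminectomy. All 4 Laminectomy mice lay below the unoperated ones, but the log2 fold change of -0.35 ± 0.10 (adjusted p = 0.00886) was short of the fold threshold. With library totals alone the small SHAM values of Atp6v0a1, Atp6v1d and Atp6v1g1 changed sign, and Atp6v1d and Atp6v1e1 were called higher in Laminectomy.

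**Figure D2:**
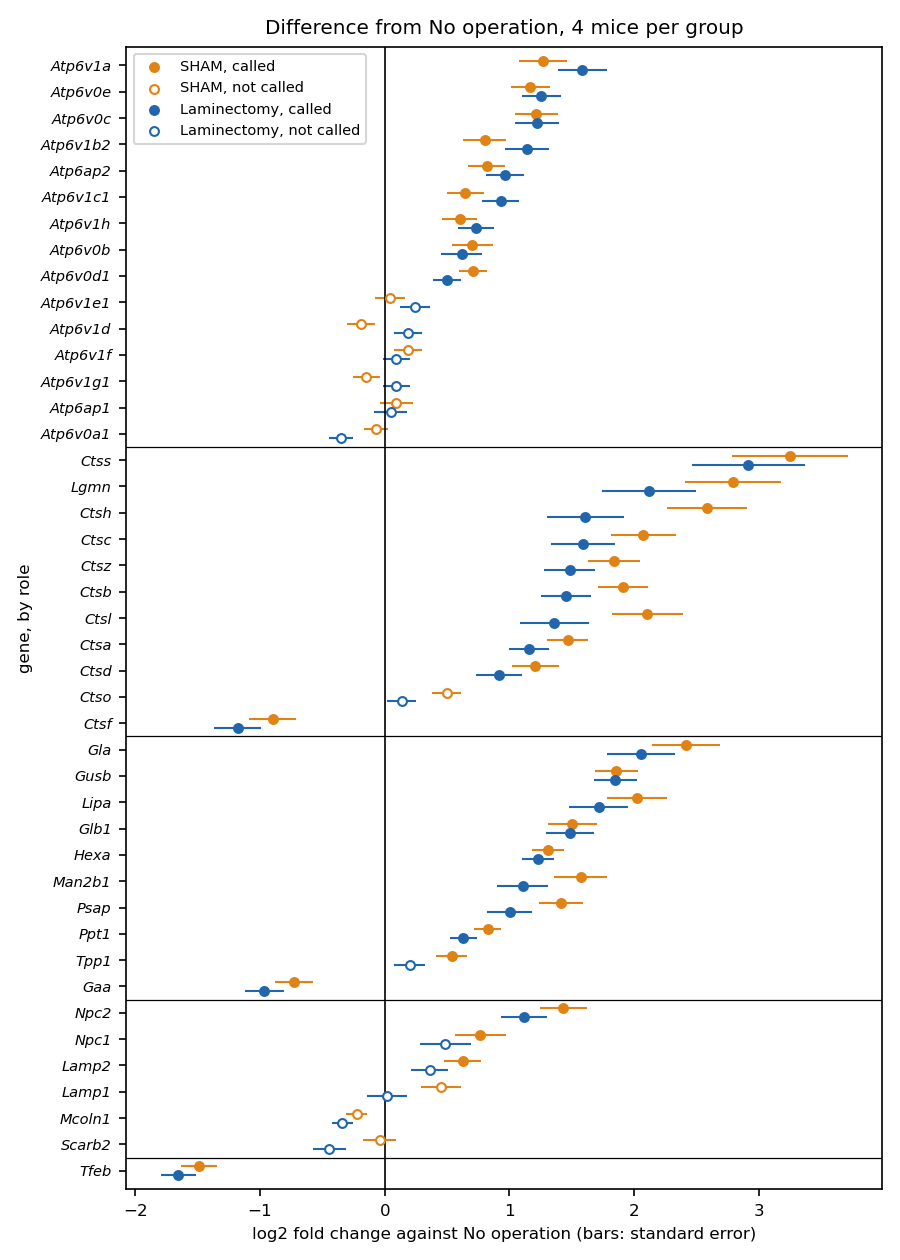
Points are log2 fold changes of each member against No operation with their standard errors, by role, in SHAM (orange) and Laminectomy (blue), and filled points were called. Ctss lies farthest to the right in both groups (3.25 and 2.92), and Tfeb farthest to the left (-1.49 and -1.65).

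The cathepsins rose most. Of the 11 genes in this role, 9 (81.8%) were called higher and 1 lower in each surgical group. Over all genes 25.7% were higher and 50.8% called in SHAM, and 24.2% and 48.6% in Laminectomy. The median log2 fold change of the 11 genes was 1.91 in SHAM and 1.45 in Laminectomy. Together they were at 2596 to 4277 CPM in No operation mice, 9354 to 14890 in SHAM mice and 7394 to 10261 in Laminectomy mice. For each of the 11 genes the mice of each surgical group and the unoperated mice did not overlap. Of all genes 54.5% (SHAM) and 56% (Laminectomy) did not overlap either.

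Ctss encodes cathepsin S, a protease of antigen-presenting cells that stays active at neutral pH (chr3:95526786-95556403). It was at 219, 108, 64.9 and 48.1 CPM in unoperated mice, 1393, 902, 772 and 1115 in SHAM mice and 1291, 660, 682 and 685 in Laminectomy mice. The lowest operated mouse was thus well above the highest unoperated one, and the change was 9.52-fold in SHAM (log2 3.25 ± 0.46, adjusted p = 0.000114) and 7.55-fold in Laminectomy (log2 2.92 ± 0.46, adjusted p = 0.000255). Lgmn encodes legumain, an asparaginyl endopeptidase that processes several cathepsins (chr12:102394084-102439813). It was at 298, 107, 91.5 and 83.1 CPM without surgery, 1302, 864, 851 and 1001 in SHAM and 744, 610, 561 and 601 in Laminectomy. The 3 groups were fully separate, with 6.93-fold higher levels in SHAM (adjusted p = 9.28e-05) and 4.34-fold in Laminectomy (adjusted p = 0.000593). Without No operation replicate 1, the highest of the unoperated mice, the log2 fold changes of Lgmn went from 2.79 to 3.42 and from 2.12 to 2.75. Ctsh, the aminopeptidase cathepsin H (chr9:90054152-90076089), was at 107, 66.9, 60.3 and 42.5 CPM without surgery, 669, 387, 313 and 286 in SHAM and 224, 180, 236 and 201 in Laminectomy. It too had 3 separate groups, with 5.99-fold and 3.05-fold higher levels (adjusted p = 4.6e-05 and 0.000987).

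The next 6 cathepsins were all higher in both groups. Ctsb, an abundant cysteine protease, went from 866 to 1452 CPM to 3382 to 4857 in SHAM and 2674 to 3335 in Laminectomy. Ctsd, the main aspartic protease, went from 742 to 1105 CPM to 1716 to 2430 and 1353 to 2036. The SHAM and Laminectomy log2 fold changes were 2.11 and 1.36 for Ctsl, a potent endopeptidase. They were 2.07 and 1.59 for Ctsc, which activates the serine proteases of granulocytes. For the carboxypeptidases the values were 1.84 and 1.48 for Ctsz and 1.47 and 1.16 for Ctsa, which also protects lysosomal galactosidase and neuraminidase. Exons of Ctsd and Ctsl overlap an annotated model on the same strand (Gm49369 and the pseudogene Gm49230), so their counts carry that uncertainty, and Ctsa, Ctsb and Ctsz overlap a neighbor on the opposite strand.

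The last pair of cathepsins behaved differently. Ctsf, the cathepsin F gene (chr19:4855130-4860918), was lower, at 53.4, 55.5, 64.5 and 62.2 CPM in unoperated mice, 42.2, 33.6, 27.9 and 22.7 in SHAM mice and 18.7, 29.5, 27.9 and 27.9 in Laminectomy mice. All operated mice were below all unoperated ones, by a log2 fold change of -0.90 ± 0.19 in SHAM (adjusted p = 0.0016) and -1.18 ± 0.19 in Laminectomy (adjusted p = 0.000319). Ctso, a little studied cysteine cathepsin, was at 35.8, 35.3, 38.2 and 38.0 CPM without surgery, 67.3, 47.7, 46.9 and 46.2 in SHAM and 41.9, 38.8, 41.6 and 39.9 in Laminectomy. The SHAM mice were all above the others, and at a log2 fold change of 0.50 ± 0.12 (adjusted p = 0.00296) Ctso just missed the fold threshold. It was called with DESeq2, DESeq2 size factors, library totals, either other low-count setting or the 2 groups alone. The call was also made without No operation replicate 3 or 4, SHAM replicate 2, 3 or 4, or Laminectomy replicate 1, 2 or 4. In Laminectomy its log2 fold change was 0.14 ± 0.12.

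**Figure D3:**
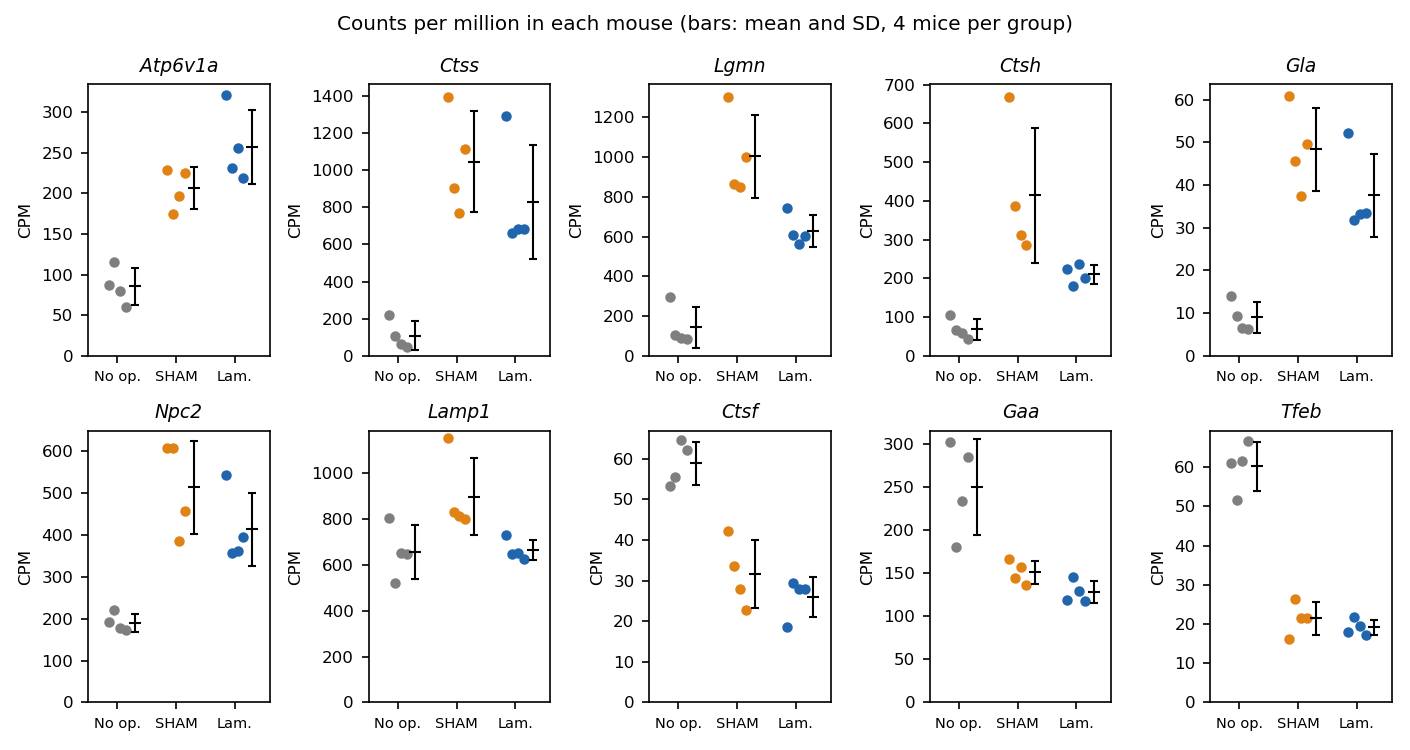
Points are the CPM of 10 members in each of the 4 mice of No operation (grey), SHAM (orange) and Laminectomy (blue), with the mean and SD beside them and axes from 0. Atp6v1a, Ctss, Lgmn, Ctsh, Gla and Npc2 are higher in every operated mouse than in any unoperated one, Lamp1 overlaps between groups, and Ctsf, Gaa and Tfeb are lower in every operated mouse.

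Among the 10 other hydrolases and cofactors, 9 were higher and 1 lower in SHAM, and 8 were higher and 1 lower in Laminectomy. Over all genes 25.7% were higher and 50.8% called in SHAM, and 24.2% and 48.6% in Laminectomy. The median log2 fold changes of the 10 genes were 1.46 and 1.17. Gla, alpha-galactosidase A, whose loss causes Fabry disease (chrX:134588149-134601125), rose most. It was at 14.1, 9.32, 6.53 and 6.31 CPM in unoperated mice, 60.7, 45.6, 37.3 and 49.6 in SHAM mice and 52.1, 31.8, 33.1 and 33.4 in Laminectomy mice. The unoperated and operated mice were far apart, with a 5.33-fold change in SHAM (log2 2.42 ± 0.27, adjusted p = 2.76e-05) and 4.15-fold in Laminectomy (log2 2.05 ± 0.27, adjusted p = 9.06e-05).

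Gusb, beta-glucuronidase (chr5:129989011-130003049), was at 74.6, 59.95, 47.4 and 44.2 CPM without surgery, 223, 189, 204 and 204 in SHAM and 253, 186, 198 and 177 in Laminectomy. The ranges of its surgical groups overlapped, and both lay above the unoperated mice, with log2 fold changes of 1.86 ± 0.17 and 1.85 ± 0.17 (adjusted p = 8.91e-06 and 1.21e-05). Lipa, the acid lipase that frees cholesterol and fatty acids from lipoproteins (chr19:34492318-34527474), was at 89.6, 72.7, 44.6 and 43.1 CPM without surgery, 258, 232, 244 and 281 in SHAM and 246, 198, 226 and 152 in Laminectomy. Every operated mouse was above the unoperated range, by a log2 fold change of 2.02 ± 0.24 and 1.72 ± 0.24 (adjusted p = 3.52e-05 and 0.000116).

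Of the others that rose in both groups, Psap, the precursor of the saposins that activate sphingolipid breakdown, went from 1305 to 1601 CPM to 3238 to 4631 in SHAM and 2412 to 3670 in Laminectomy. The SHAM and Laminectomy log2 fold changes were 1.57 and 1.11 for Man2b1 (lysosomal alpha-mannosidase), 1.51 and 1.49 for Glb1 (beta-galactosidase), 1.31 and 1.23 for Hexa (the alpha subunit of hexosaminidase) and 0.82 and 0.63 for Ppt1 (a thioesterase that removes palmitate from proteins). Glb1 shares exon positions with Tmppe on the same strand, and Hexa and Ppt1 with a neighbor on the opposite strand. Tpp1, a peptidase that removes tripeptides, was at 133, 108, 109 and 111 CPM without surgery, 208, 157, 155 and 151 in SHAM and 151, 127, 130 and 123 in Laminectomy. Its SHAM mice were all above the unoperated mice (log2 fold change 0.54 ± 0.12, adjusted p = 0.00279), a call that was lost without SHAM replicate 1, while its Laminectomy mice overlapped them (0.20 ± 0.12, adjusted p = 0.18).

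Gaa, the glycogen-degrading enzyme (chr11:119267887-119285454), fell. It was at 303, 180, 234 and 286 CPM in unoperated mice, 167, 145, 158 and 136 in SHAM mice and 119, 146, 130 and 118 in Laminectomy mice. No operated mouse reached the unoperated range, and the log2 fold change was -0.73 ± 0.15 in SHAM (adjusted p = 0.00167) and -0.97 ± 0.15 in Laminectomy (adjusted p = 0.000306). With library totals alone the SHAM call of Gaa was lost, and the direction was the same.

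Of the 6 membrane and lipid-transfer proteins, 3 were higher in SHAM, 1 was higher in Laminectomy and 0 were lower in either. That is 50% and 16.7% of the role called, beside 50.8% and 48.6% of all genes. Npc2, the soluble protein that binds cholesterol in the lumen (chr12:84754562-84773152), was the one called in both groups. It was at 192, 220, 178 and 172 CPM without surgery, 607, 607, 385 and 457 in SHAM and 543, 357, 361 and 395 in Laminectomy. Its operated mice were all above the unoperated mice, by a log2 fold change of 1.43 ± 0.19 and 1.12 ± 0.19 (adjusted p = 6.3e-05 and 0.000378). Npc1, the membrane partner that takes cholesterol from Npc2, was at 130, 77.0, 75.3 and 79.8 CPM without surgery, 196, 121, 155 and 146 in SHAM and 152, 134, 118 and 104 in Laminectomy. One unoperated mouse reached into both surgical ranges, and Npc1 was called in SHAM (0.77 ± 0.21, adjusted p = 0.00683) and not in Laminectomy (0.49 ± 0.20, adjusted p = 0.0586), where it passed the test without No operation replicate 1 and under 4 other alternatives. Exons of Npc1 and Lamp1 overlap a neighbor on the opposite strand.

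Lamp1 and Lamp2 are the most abundant glycoproteins of the lysosomal membrane, and Lamp2 is also needed for fusion with autophagosomes. Lamp1 (chr8:13159161-13175338) was at 805, 521, 650 and 647 CPM without surgery, 1152, 829, 811 and 799 in SHAM and 731, 648, 652 and 627 in Laminectomy. The Laminectomy mice lay inside the unoperated range, with a log2 fold change of 0.02 ± 0.16, and that of SHAM was 0.45 ± 0.16 (adjusted p = 0.0297), short of the fold threshold. Lamp1 passed it in SHAM with library totals alone (0.71) and without No operation replicate 1, SHAM replicate 3 or SHAM replicate 4 (0.50 to 0.57). Lamp2 was at 438, 323, 354 and 312 CPM, then 696, 457, 527 and 520 in SHAM and 446, 431, 493 and 462 in Laminectomy. It was called higher in SHAM (0.62 ± 0.15, adjusted p = 0.00375), though not without SHAM replicate 1, and was at 0.36 ± 0.15 in Laminectomy (adjusted p = 0.0563). 

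Scarb2, also known as LIMP-2, carries glucocerebrosidase to the lysosome. It was at 241, 197, 226 and 245 CPM without surgery, 278, 182, 224 and 198 in SHAM and 152, 177, 170 and 168 in Laminectomy. All Laminectomy mice were below all unoperated mice, at a log2 fold change of -0.44 ± 0.13 (adjusted p = 0.0136) that did not reach the fold threshold, while SHAM mice spread around them. Mcoln1 encodes the calcium channel of the lysosomal membrane. It was at 34.7, 35.6, 35.4 and 36.3 CPM without surgery, 32.5, 29.8, 31.5 and 27.8 in SHAM and 30.7, 27.7, 25.1 and 28.8 in Laminectomy. Both surgical groups lay below the narrow unoperated range, by log2 fold changes of -0.22 ± 0.08 and -0.34 ± 0.08 (adjusted p = 0.0322 and 0.00408), which were under the fold threshold, and with library totals alone the SHAM values of Mcoln1 and Scarb2 changed sign. Without No operation replicate 2 Scarb2 was called lower in Laminectomy.

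Tfeb (chr17:47737030-47792419) moved against most of the other members. It was at 61.0, 51.6, 61.6 and 66.7 CPM in unoperated mice, 16.2, 26.4, 21.7 and 21.5 in SHAM mice and 18, 21.7, 19.5 and 17.3 in Laminectomy mice. The highest operated mouse was at 26.4 CPM and the lowest unoperated one at 51.6, and the log2 fold change was -1.49 ± 0.14 in SHAM (adjusted p = 1.06e-05) and -1.65 ± 0.14 in Laminectomy (adjusted p = 8.29e-06). Both calls held under each normalization, filter, tool and left-out mouse that was tried. These values are mRNA levels, and the activity of TFEB, which is set largely by its place in the cell, was not measured.

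Levels between genes were compared per exon length, as TPM (the same share after division by exon length), within each group. Psap was the highest member and Ctsd the next in every group, at 1605 ± 188 and 1130 ± 210 TPM (mean ± SD, n = 4) without surgery. Ctss rose from place 6 of the 43 members in No operation to place 3 in SHAM and Laminectomy, with 250 ± 174, 3022 ± 664 and 2499 ± 807 TPM. Lgmn went from place 10 to place 5, and Lamp1 from place 3 to place 6. Tfeb went from place 34 to the last place in both surgical groups, and Mcoln1 was at place 42 in all 3. TPM has its own scale in each group, so the places and not the differences are compared here.

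The surgical groups were then compared with each other, which addresses what removal of the laminae added to soft tissue surgery. No member was called with edgeR, where 0% of all genes were called and the smallest adjusted p of any gene was 0.0698. At an unadjusted p below 0.05 there were 12 members, 10 lower and 2 higher in Laminectomy, beside 16% of all genes. DESeq2 called 1 member, Ctsh, lower in Laminectomy (log2 fold change -0.97, adjusted p = 0.040), among 337 higher and 359 lower genes. The median log2 fold change of the members was -0.26, and 33 of the 43 were lower in Laminectomy, where 50.6% of all genes were higher. Without SHAM replicate 1 the median was -0.14, with 30 members lower and 9 at an unadjusted p below 0.05, 5 of them lower, beside 10.3% of all genes. The mice of the groups did not overlap for 8 of the 43 members and for 10.1% of all genes.

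The direction of the estimates differed between roles, though edgeR called no member. All 28 members outside the pump had a lower estimate in Laminectomy than in SHAM, while 10 of the 15 pump members had a higher one. These 10 were 7 of 8 in the cytosolic sector, 2 of 5 in the membrane sector and 1 of 2 accessory subunits. Without SHAM replicate 1 the higher ones were 11 of the 15 and 2 of the 28 (Glb1 and Gusb). The 2 members with a higher value at an unadjusted p below 0.05 were Atp6v1d (log2 fold change 0.38 ± 0.11, unadjusted p = 0.0059, adjusted p = 0.153) and Atp6v1g1 (0.24 ± 0.11, unadjusted p = 0.04995). The largest differences in the other direction were in Ctsh (-0.98 ± 0.30, adjusted p = 0.165), Ctsl (-0.75 ± 0.27, adjusted p = 0.218) and Lgmn (-0.68 ± 0.36, adjusted p = 0.386). Ctso was at -0.36 ± 0.12 (adjusted p = 0.175), and each of the 4 SHAM mice was above each of the 4 Laminectomy mice. Among the members called in SHAM alone, the difference between the surgical groups was -0.34 ± 0.12 for Tpp1, -0.26 ± 0.15 for Lamp2 and -0.28 ± 0.20 for Npc1 (adjusted p = 0.215, 0.412 and 0.523), so a difference was not shown for them. Of the 14 macrophage markers 13 had a lower estimate in Laminectomy than in SHAM, 10 of them at an unadjusted p below 0.05, and the part of this in the members' direction was not tested.

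**Figure D4:**
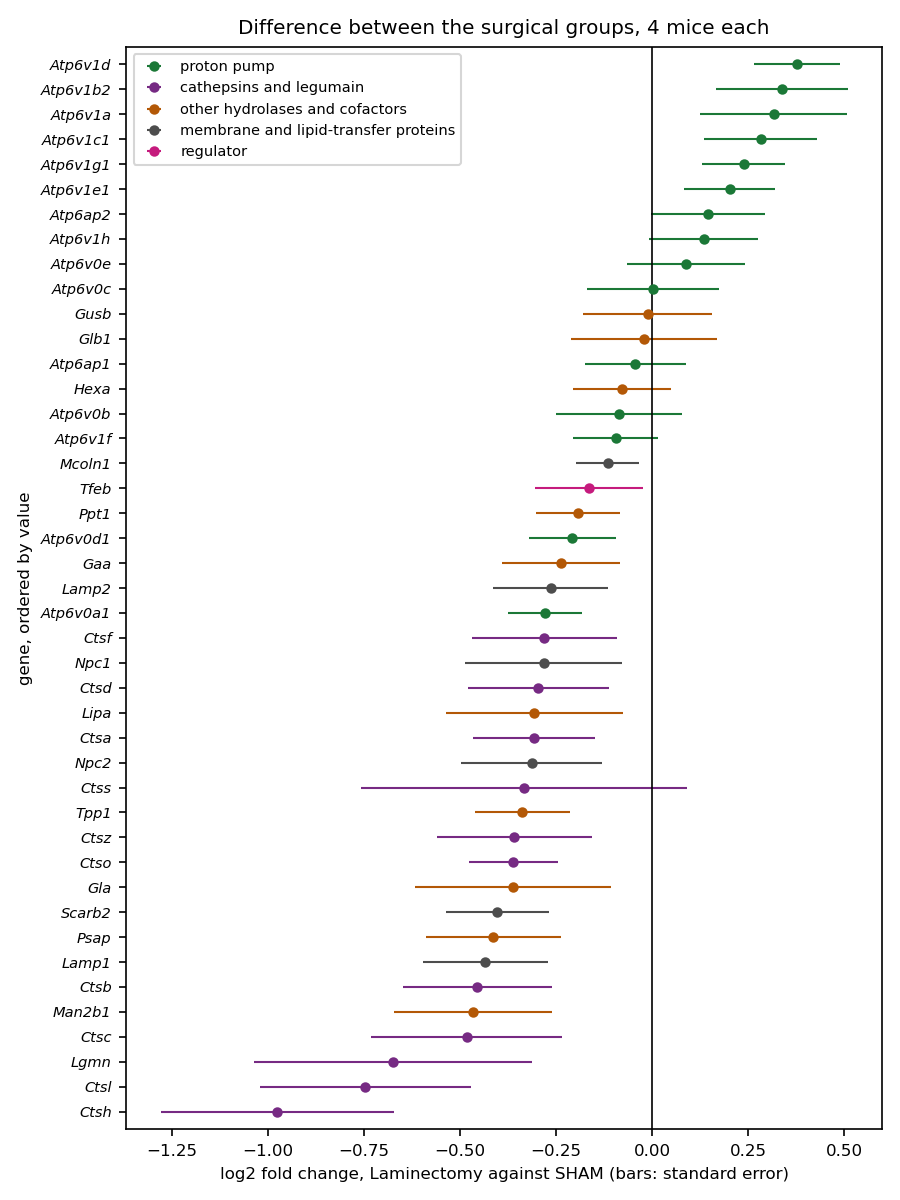
Points are the log2 fold change of each member between Laminectomy and SHAM with its standard error, ordered by value and colored by role. The values to the right of 0 belong to 10 pump genes, and Ctsh lies farthest to the left at -0.98.

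Summed osteoclast markers (8 genes, of which Mmp9, also a gene of neutrophils and macrophages, had the highest mean in every group) were at 118 to 679 CPM in No operation mice, 421 to 724 in SHAM mice and 939 to 2164 in Laminectomy mice, where Laminectomy replicate 1 was highest. In Laminectomy 6 of the 8 were called higher and in SHAM 2 were higher and 1 lower, beside the shares of all genes given above. Between Laminectomy and SHAM 0 of the 8 were called and 5 had an unadjusted p below 0.05. The mean CPM of the osteoclast fusion genes Dcstamp and Ocstamp was 2.25 and 1.36 without surgery, 4.13 and 4.36 in SHAM and 17.8 and 17.9 in Laminectomy, and that of Calcr was 2.11 or less in every group. Summed fibroblast markers were at 8521 to 27811, 58520 to 79080 and 54612 to 67874 CPM, and neutrophil markers spread widely, at 15.8 to 2023, 420 to 1190 and 480 to 1983 CPM, with 1 of 8 called in SHAM and 0 of 8 in Laminectomy. Summed adipocyte markers were at 1172 to 2233, 259 to 1322 and 78.5 to 412 CPM, and 4 of 6 were lower in SHAM and 6 of 6 in Laminectomy. Of 6 endothelial markers 3 (50%) were lower in each surgical group and 0 higher, a share called that is near that of all genes (50.8% and 48.6%). Keratinocyte markers summed to 21.5 to 41.4, 10.7 to 132 and 8.15 to 13.4 CPM, highest in SHAM replicate 1, and 2 of 4 tested were higher and 1 lower in SHAM and 1 was lower in Laminectomy. Neural markers summed to 57.1 to 116, 19.4 to 127 and 19.5 to 482 CPM, highest in Laminectomy replicate 2, and of 4 tested 1 was higher in SHAM and 2 in Laminectomy. That is 25% and 50% called, beside the same 50.8% and 48.6% of all genes. The T and B cell markers summed to 42.2 CPM or less in every mouse, and of 5 tested 1 was higher and 1 lower in SHAM and 1 was higher in Laminectomy. All 12 muscle markers were lower in each surgical group, while 13 and 12 of the 14 macrophage markers were higher. The part of these cell types in the members' changes was not tested.

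**Figure D5:**
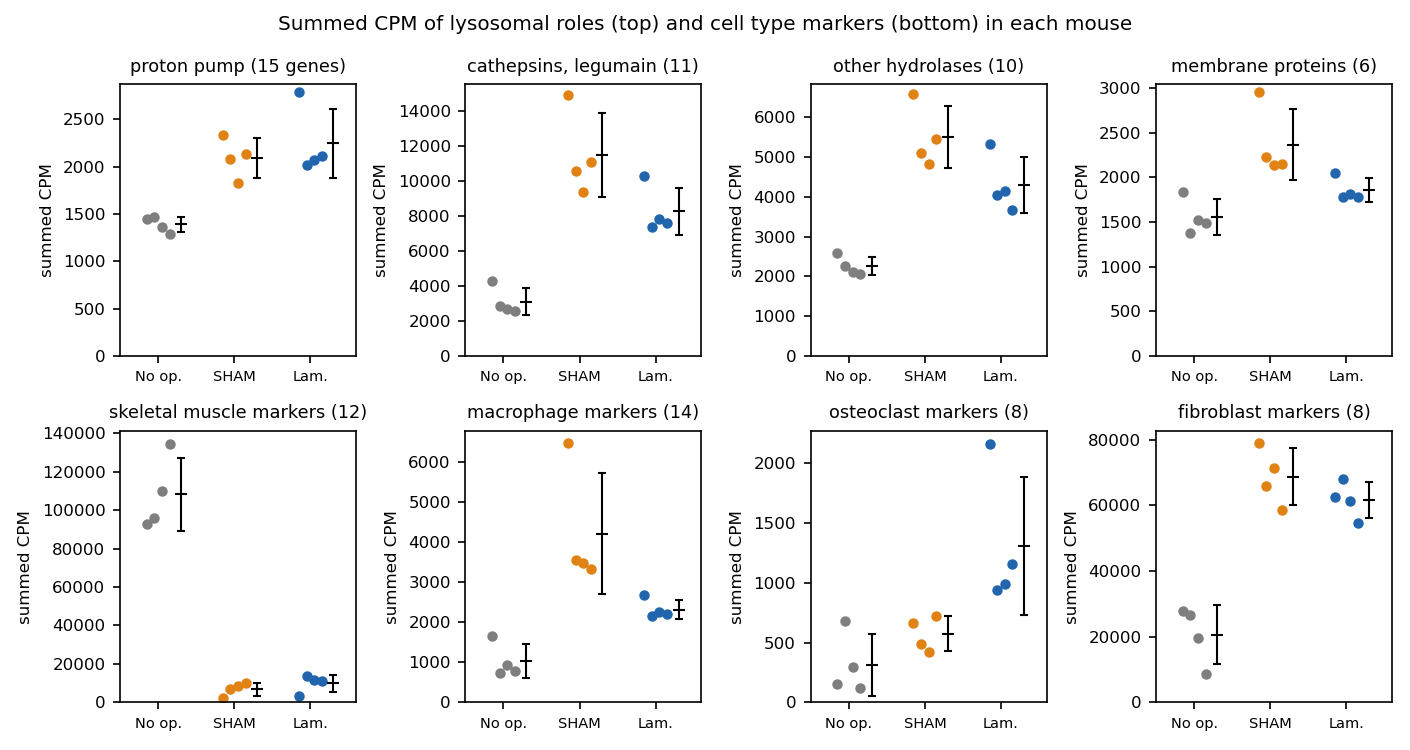
The upper panels plot the summed CPM of 4 lysosomal roles and the lower panels those of 4 cell type marker lists, 1 point per mouse with the mean and SD of each group beside it, and axes from 0. Cathepsin and macrophage sums have their highest means in SHAM, pump and osteoclast sums have their highest value in Laminectomy replicate 1, and the muscle sum is high in No operation mice alone.

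Genes of the same pathways outside the 43 were described from fixed lists, of which 130 genes were tested. Of these, 60 were higher and 24 lower in SHAM, and 55 were higher and 26 lower in Laminectomy, with median log2 fold changes of 0.39 and 0.26, beside 25.7% and 24.2% of all genes higher and 25.1% and 24.4% lower. Among 6 other isoforms of pump subunits, 2 were higher and 2 lower in SHAM, and 3 were higher and 2 lower in Laminectomy. Tcirg1, the membrane subunit of osteoclasts and of immune cells, was at 29.6 to 72.8 CPM without surgery, 170 to 310 in SHAM and 163 to 318 in Laminectomy (log2 fold changes 2.22 and 2.20). Atp6v0d2, the isoform of osteoclasts and some macrophages, was at 0.911 to 30.7 CPM, then 23.0 to 56.3 and 81.7 to 149 (1.85 and 3.11). Without No operation replicate 2 the values of Atp6v0d2 were 2.92 and 4.18, and its SHAM call was lost without No operation replicate 1 or 3 or SHAM replicate 2, 3 or 4 (1.63 to 1.83). Atp6v0e2, a paralog of Atp6v0e, went the other way, from 36.5 to 56.7 CPM to 2.78 to 5.61 and 1.11 to 12.03 (-3.41 and -2.73), while Atp6v0e itself rose.

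Among 4 other cathepsins 2 (50%) were higher in each group and 0 lower, a share near that of all genes called (50.8% and 48.6%). Ctsk, the collagen-degrading protease of osteoclasts, was at 137, 402, 201 and 65.8 CPM without surgery, 412, 548, 444 and 529 in SHAM and 1746, 796, 912 and 1075 in Laminectomy. The Laminectomy mice were all above the SHAM mice, though the difference of 1.23 on the log2 scale was not called (adjusted p = 0.212). Of 35 other hydrolases, 25 were higher and 1 lower in SHAM and 23 were higher and 1 lower in Laminectomy. That is 71.4% and 65.7% higher, beside 25.7% and 24.2% of all genes. Lyz2, the lysozyme of myeloid cells, had log2 fold changes of 2.32 and 2.01, and Acp5, the acid phosphatase used to stain osteoclasts, had 0.05 (not called) and 1.87. The unoperated mice spread from 25.2 to 312 CPM for Acp5, and without No operation replicate 2, the highest, its values were 1.07 (not called) and 2.89. The Laminectomy call of Acp5 was lost without No operation replicate 1, 3 or 4 or Laminectomy replicate 1 (1.53 to 1.86), and the SHAM call of Ctsk without No operation replicate 1 or 3 or SHAM replicate 2 or 4 (1.12 to 1.26). Smpd1, acid sphingomyelinase, was lower in both (-1.12 and -1.09). By group means Ctsk and Acp5 were highest in Laminectomy, while Ctss, Lgmn and Ctsh were highest in SHAM, and edgeR called none of these 5 genes between the surgical groups.

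Of 29 other membrane proteins, 16 were higher in each group, with 3 lower in SHAM and 5 in Laminectomy. That is 65.5% and 72.4% called, beside 50.8% and 48.6% of all genes. Cd68, a LAMP-family protein of macrophages, went from 17.95 to 73.3 CPM to 237 to 403 and 185 to 391 (log2 fold changes 2.92 and 2.61), and the peptide transporter gene Slc15a3 had 3.47 and 2.66. Abcb9, a peptide pump, and Mfsd8 fell (-1.71 and -1.52, and -1.37 and -1.47). Of 7 cysteine protease inhibitors, 4 were higher and 2 lower in SHAM, and 3 were higher and 2 lower in Laminectomy. That is 85.7% and 71.4% called, beside 50.8% and 48.6% of all genes. Cstb, which inhibits cathepsins in the cytosol, went from 14.02 to 28.1 CPM to 91.2 to 160 and 79.9 to 148 (2.64 and 2.43). Cst3, the secreted inhibitor cystatin C, was lower (-0.52 and -0.64), though not called in either with library totals alone, nor in SHAM without No operation replicate 3 or 4 or SHAM replicate 3 or 4.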

How the data were processed

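RNA-seq libraries (stranded, poly(A)-selected) were made from 12 mice, and the authors deposited a table of expected counts for 18996 genes, not normalized, in which 10.22% of the values were not whole numbers (4 members: Ctsa, Ctsb, Glb1 and Npc1). The step that made fractional counts is not given in the sources used here. The submitters' processing notes name STAR 2.6.1b, featureCounts 2.0.1, DESeq2 1.30.1 and GRCm38/mm10, and the study's methods describe featureCounts with default settings. The study selected 3 of 4 mice per group for its own tests without naming them here, so all 4 were used. Values were rounded to whole numbers, which moved none by more than 0.5. Genes were filtered with filterByExpr (14765 kept), scaled with TMM (factors 0.849 to 1.13) and fitted for all 12 mice in 1 quasi-likelihood model in edgeR 4.0.16 (R 4.3.3), with Benjamini-Hochberg adjustment over all genes tested. The biological coefficient of variation was 28.3%.

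The groups came from the sample labels. Nothing beyond "biological replicates" describes the mice as litters or batches. Replicates within groups differed by far more than counting noise. Precision depends on each gene's count and on the spread between mice, and the counts cover counting error only since reads carried no molecular identifiers. The 43 members, the pathway lists and the marker lists were chosen with earlier results of these data known. Values in every mouse are given for the 3 members of each role with the largest change between Laminectomy and No operation, for members called lower, for members called in 1 comparison or neither, and for the 3 with the smallest p between Laminectomy and SHAM. For each pathway list, up to 2 of the largest increases and 2 of the largest decreases called in Laminectomy with a mean of at least 10 CPM are named. Gene positions, exon lengths (18471 genes) and exon overlaps are from the GENCODE annotation of GRCm38, and promoter windows are from RefSeq. Alternatives were DESeq2 1.42.0, other normalizations, filters and thresholds, 2 groups alone, a replicate block and leaving out each mouse.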

Additional observations from a re-analysis of the deposited data

Results flagged for a closer look

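For 12 of the 129 pairs of a member and a group, the highest or lowest mouse stood apart from the other 3 by Dixon's criterion for 4 values, where chance would give about 6.45. Laminectomy replicate 1 stood apart upward for Atp6v1c1 (113.8 CPM, next 83.97), Atp6ap1 (250.8), Ctss (1291) and Gla (52.09), and downward for Ctsf (18.69). SHAM replicate 1 stood apart upward for Ctso (67.33), Tpp1 (207.8) and Lamp1 (1152). No operation replicate 1 stood apart upward for Tpp1 (132.6) and Npc1 (130.2). No operation replicate 4 stood apart upward for Atp6v1f (45.07) and downward for Atp6ap2 (55.66). The first replicate of each group also held the highest macrophage marker sum of its group (1647, 6480 and 2676 CPM), and its part in these values was not tested.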

How the results depend on the processing

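Under the alternatives tried no called member changed sign. With a log2 fold threshold of 1 in place of 0.5, 20 members were higher in each surgical group and 1 (Tfeb) was lower in SHAM, and with no fold threshold 6 were lower in Laminectomy (Atp6v0a1, Mcoln1 and Scarb2 added). DESeq2 called 1 member (Ctsh) lower in Laminectomy than in SHAM, where edgeR called 0, and 696 genes in all. Leaving out 1 mouse at a time gave 28 to 32 members higher in SHAM, 26 to 28 higher in Laminectomy and 3 to 4 lower in Laminectomy. Whether equal replicate numbers mark paired mice was not settled (7 of 12 same-numbered pairs correlated above 0.1, from -0.228 to 0.352). With a replicate block 30 members were higher and 3 lower in SHAM, 28 higher and 3 lower in Laminectomy, and 0 were called between the surgical groups. The cause of these changes was not tested. The lowest count of a member in any mouse was 90.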

Other observations

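Of 17 genes of the Tfeb family and of mTORC1 regulation, 4 were called higher and 4 lower in SHAM, and 3 higher and 3 lower in Laminectomy. These are 47.1% and 35.3% of the list, beside 50.8% and 48.6% of all genes called. Tfec, the family member of macrophages, was at 0.701 to 4.72 CPM in No operation mice, 16.8 to 30.8 in SHAM mice and 9.82 to 17.8 in Laminectomy mice (log2 fold changes 2.89 and 2.36), and Fnip2 had 1.69 and 1.27. Rragd, which encodes a Rag GTPase that recruits mTORC1 to the lysosome, went from 156 to 239 CPM to 6.80 to 27.1 and 13.4 to 38.3 (-3.47 and -2.87), and Fnip1 had -0.72 and -0.80, though it was called in neither with library totals alone.

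Of 23 autophagy genes, 3 were higher and 11 lower in SHAM, and 0 were higher and 11 lower in Laminectomy, with median log2 fold changes of -0.49 and -0.45. The list was called at 60.9% and 47.8%, beside the same 50.8% and 48.6% of all genes, and 25.1% and 24.4% of all genes were lower. Bnip3, a mitophagy receptor gene, was at 278 to 376 CPM without surgery, 78.7 to 286 in SHAM and 57.8 to 81.5 in Laminectomy, where SHAM replicate 1 alone reached the unoperated range. Optn, another autophagy receptor gene, went from 60.7 to 81.9 CPM to 12.8 to 20.1 and 13.7 to 20.7. Of 9 genes of mannose 6-phosphate sorting, which delivers new enzymes to the lysosome, 4 were higher and 1 lower in SHAM, and 5 were higher and 2 lower in Laminectomy (55.6% and 77.8% called). M6pr, the cation-dependent receptor, had log2 fold changes of 1.27 and 1.20, Gnptab, which makes the sorting tag, had 0.85 and 0.99, and Sort1, a sorting receptor, had -1.12 and -1.13. Gnptg, a subunit of the same tagging enzyme as Gnptab, had -0.48 (not called) and -0.51. The Laminectomy call of Gnptg was lost with DESeq2, with library totals alone and without No operation replicate 3 or 4, SHAM replicate 1 or Laminectomy replicate 2 or 3, and it was called in SHAM without No operation replicate 2 or SHAM replicate 2. Muscle marker sums were lower in the same mice, and their part in these values was not tested.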
